A study of Mus musculus with 7 samples.

Results

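The 10 keratin genes described here, which are not the principal keratins of the interfollicular epidermis, the follicle or the hair shaft, were followed across mouse basal cell carcinoma, newborn epidermis and a carcinoma cell line. The 10 genes were Krt7, Krt8, Krt18, Krt19 and Krt20, the keratins of simple, single-layered epithelia, and the rarer keratins Krt23, Krt24, Krt78, Krt80 and Krt4. Members were all probe sets that the platform annotation assigns to exactly 1 of these genes, which gave 13 of 45037 probe sets after the control probe sets were left out. Krt8 had 3 probe sets, Krt4 had 2, and each of the other 8 genes had 1. Each probe set reports the brightness of 1 set of short oligonucleotides, so values are to be read between arrays, probe set by probe set; where a list of genes is summed, the sum too is read between arrays.

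The study held 7 single-channel Affymetrix arrays. Dissected basal cell carcinoma was on 2, newborn normal epidermis (postnatal day 0, P0) on 2, and PDKC1 cells on 3. PDKC1 is a mouse basal cell carcinoma cell line, here without cyclopamine (0 h) and after 6 h and 10 h with cyclopamine, an alkaloid that blocks Hedgehog signalling at Smoothened. The sources used here give no mouse strain, allele or sex, and no age for the tumours, and do not say whether each array came from its own animal, so the p-values speak of the spread among these arrays alone. Tissue arrays were made from 100 ng of RNA and PDKC1 arrays from 2000 ng. Every epidermis array was newborn, so carcinoma and age cannot be told apart in any difference between tumour and epidermis.

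Keratins form intermediate filaments as obligate pairs of a type I and a type II protein. Krt18, Krt19, Krt20, Krt23 and Krt24 are type I genes, and Krt7, Krt8, Krt78, Krt80 and Krt4 are type II genes. Krt8 and Krt18 form the founding pair of simple epithelia, Krt7 is found in ducts and glands, and Krt19 in simple epithelia and in the hair follicle. Krt20 marks intestinal and bladder epithelium and the Merkel cells of the skin, while Krt4 pairs with Krt13 in the suprabasal layers of oesophagus and tongue. Krt78 is a keratin of suprabasal stratified epithelium, and Krt80 was described in human tissues as a keratin of differentiating cells that lies near desmosomes.

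In the RefSeq annotation of GRCm38.p6 the genes lay in the 2 keratin clusters, 4 of them (Krt19, Krt20, Krt23 and Krt24) on chromosome 11 and 6 on chromosome 15. Krt78, Krt8 and Krt18 were consecutive coding genes, Krt80 lay next to Krt7, and Krt20 lay next to Krt23. RefSeq promoter sequences were matched for 7 of the 10 genes. Those of Krt19, Krt80 and Krt4 were not used here. The 250 bases upstream of the start of the 3 genes with the greatest differences between tumour and epidermis are shown, 5′ to 3′ on the strand of the gene. Capitals mark TATAA or ATAAA on that strand with its first base 20 to 40 bases before the start.
Krt24, chr11:99285263-99285512, minus strand: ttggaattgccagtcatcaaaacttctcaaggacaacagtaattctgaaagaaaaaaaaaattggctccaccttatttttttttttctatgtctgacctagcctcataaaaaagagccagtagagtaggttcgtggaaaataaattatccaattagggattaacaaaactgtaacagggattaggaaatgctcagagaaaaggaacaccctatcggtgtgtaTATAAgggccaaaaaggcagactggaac
Krt23, chr11:99493121-99493370, minus strand: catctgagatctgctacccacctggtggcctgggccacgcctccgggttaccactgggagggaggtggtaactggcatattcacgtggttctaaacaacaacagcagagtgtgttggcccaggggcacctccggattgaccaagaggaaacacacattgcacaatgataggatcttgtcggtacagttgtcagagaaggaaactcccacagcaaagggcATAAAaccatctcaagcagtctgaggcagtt
Krt78, chr15:101954288-101954537, minus strand: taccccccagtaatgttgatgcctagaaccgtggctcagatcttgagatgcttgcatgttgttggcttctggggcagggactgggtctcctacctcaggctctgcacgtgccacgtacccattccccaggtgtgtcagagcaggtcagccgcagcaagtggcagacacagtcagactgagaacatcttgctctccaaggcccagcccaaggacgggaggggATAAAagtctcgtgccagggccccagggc
The capitals began 28 bases before the start in Krt24, 31 in Krt23 and 29 in Krt78. Of the 7 promoters 4 held such letters in that window, the other being Krt20, against 5.72% of all 32851 RefSeq promoters. This window was chosen after the sequences had been read, and the match describes letters only. The longer TATAAA was sought on either strand in a wider window, from 250 bases before to 50 after the start. It was found in 2 of the 7, Krt8 and Krt20, against 13.6% of all promoters. The match of Krt8 did not lie within the 250 bases before the start. GACCACCCA, a sequence bound by GLI factors, was found on either strand in 0 of the 7, against 0.253% of all promoters.

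The median intensity of all probe sets was 118.2 and 127.9 on the tumour arrays, 71.0 and 75.3 on the epidermis arrays, and 72.1 to 78.1 on the PDKC1 arrays. The ratio of 3′ to 5′ signal of the Actb control probe sets was 11.3 for tumour 1 and 93.1 for tumour 2, with 3.98 and 2.84 for the epidermis arrays and 1.15 to 1.21 for PDKC1. For Gapdh the ratio was 10.6 and 15.4 for the tumours, 5.27 and 4.52 for the epidermis arrays and 0.699 to 0.741 for PDKC1. Both ratios were higher in both tumours than in both epidermis arrays, so RNA quality, too, cannot be told apart from tissue. Over all probe sets the median log2 difference, tumour minus epidermis, was 0.19; quantile normalization moved it to -0.11, and centring every array at its median to -0.45. Labelled cell types were checked on keratins and junction genes that were picked after their values were seen. The basal keratin gene Krt5 was bright everywhere, at 27408.2 and 26658.7 in the tumours, 29427.1 and 35512.7 in the epidermis, and 29659.1 to 31321.6 in PDKC1. The epithelial adhesion gene Epcam was at 7982.3 and 5581.7 in tumour tissue and 8812.5 and 9235.5 in epidermis, but at 6.5 to 40.4 in PDKC1. The mesenchymal cadherin gene Cdh2 was at 1934.5 to 2297.7 in PDKC1. Fibroblast genes were mixed there, with 7, 7 and 8 of 14 above the array median at 0 h, 6 h and 10 h, so Cdh2 alone names no cell type. PDKC1 was thus bright for a basal keratin and dim for a general epithelial marker.

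**Figure D1:**
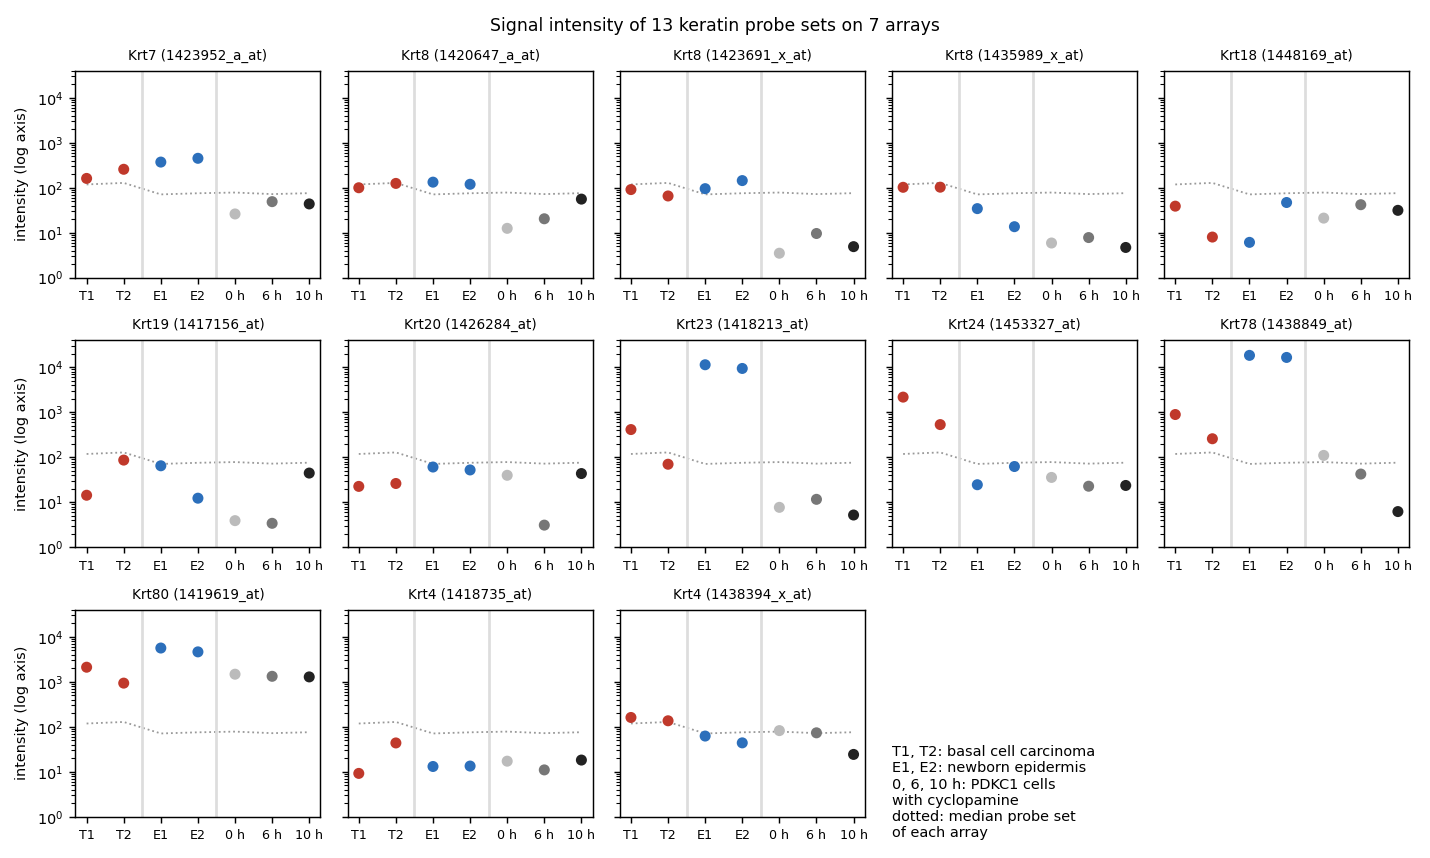
Signal intensity (log axis) of each of the 13 keratin probe sets on the 7 arrays: tumours (T1, T2), newborn epidermis (E1, E2) and PDKC1 at 0, 6 and 10 h of cyclopamine; each point is 1 array and the dotted line joins the medians of the arrays. Both epidermis arrays lie above both tumours for Krt23, Krt78 and Krt80, and both tumours lie above both epidermis arrays for Krt24.

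The comparison of carcinoma with normal skin epithelium found no called difference among the simple keratins, while 4 of the 5 rarer keratins were called, in opposite directions. Krt24 rose in the tumours, and Krt23, Krt78 and Krt80 fell. No probe set of Krt7, Krt8, Krt18, Krt19, Krt20 or Krt4 passed the test. Of the 7 probe sets of the simple keratins 4 were above the median on no array, so the 2 classes were not compared at like levels. In the same fit with 1 probe set per gene, 1 of the 10 genes was called higher, against 16.2% of all 18193. Lower were 3 of the 10, against 12.3%. Of the 13 probe sets 1 was called higher, against 18.3% of all 45037, and 3 were called lower, against 9.17% (limma, Benjamini-Hochberg adjusted p under 0.05 over all probe sets). Differences are on the log2(intensity + 16) scale, tumour minus epidermis, with the standard error of the fit and 2 arrays per tissue. The median difference of the 13 probe sets was -0.15. Tissue arrays are bulk samples, so fewer cells of a type and less RNA per cell cannot be told apart.

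Krt24 encodes a type I keratin. Its intensity was 2169.3 and 531.9 in the 2 tumours, against 24.5 and 62.2 in the epidermis. Both tumours lay far above both epidermis arrays, and the epidermis values were under the median of their arrays. The difference was 4.28 ± 0.66, or 19.4-fold, with an adjusted p of 0.00349 (limma). A pseudocount of 4 gave 4.63, and one of 64 gave 3.45. In PDKC1 the same probe set was at 35.6, 22.7 and 23.6 at 0 h, 6 h and 10 h, under the array median each time. The order of the levels was thus tumour, then epidermis and PDKC1, whose values overlapped. The high Krt24 signal of the tumours was not seen in the carcinoma line.

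Krt23, also a type I keratin gene, showed the widest gap in the opposite direction. Its intensity was 412.4 and 69.9 in the tumours, against 11369.0 and 9403.9 in the epidermis. Both tumours lay below both epidermis arrays, where the probe set stood at percentiles 98.5 and 98.3 of the arrays; in the tumours it stood at 70.8 and 36.7. The difference was -5.75 ± 0.65, which is 54.0-fold lower, with an adjusted p of 0.0011 (limma). In PDKC1 it was at 7.7, 11.6 and 5.2 at 0 h, 6 h and 10 h, below every tissue value. Its order was epidermis, tumour, PDKC1, with no overlap between neighbours. Krt20, its neighbour on chromosome 11, had 22.5 and 26.1 in tumour tissue and 60.6 and 52.2 in epidermis, all under the array medians.

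Krt78 is a type II keratin gene of suprabasal cells. Its intensity was 890.3 and 257.7 in the tumours, against 18372.7 and 16526.3 in the epidermis. The 2 tissues were far apart, yet both tumour values were above the medians of their arrays. The difference was -5.13 ± 0.50, which is 35-fold lower, with an adjusted p of 0.000713 (limma). In PDKC1 it was at 109.9 at 0 h, 42.3 at 6 h and 6.2 at 10 h, below both tissues. The next coding genes along the chromosome, Krt8 and Krt18, had no such gap.

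Krt80, the type II keratin gene linked to desmosomes, was the one member above the median on all 7 arrays. Its intensity was 2107.7 and 933.6 in the tumours, against 5625.0 and 4621.9 in the epidermis. The tissues did not overlap, and the difference was -1.85 ± 0.37, which is 3.6-fold lower, with an adjusted p of 0.0101 (limma). The call was lost without epidermis array 1 (-1.71, adjusted p = 0.101) and without epidermis array 2 (-1.99, adjusted p = 0.0636), and the difference was -2.43 without tumour 1 and -1.27 without tumour 2. With 1 array left out, the lone array of a tissue is assumed to vary like the pair of the other tissue; for Krt80 array 2 minus array 1 was -1.16 between the tumours and -0.28 between the epidermis arrays, so these p-values depend on which pair gave the spread. In PDKC1 it was at 1474.2, 1323.6 and 1283.4, inside the range of the tumours and below the epidermis. Tumour and PDKC1 were therefore neighbours that did not differ beyond the spread of the tumours.

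The 4 called keratins also differed between the tumours. Tumour 2 minus tumour 1 was -2.32 for Krt23, -2.0 for Krt24, -1.73 for Krt78 and -1.16 for Krt80 on the log2 scale. Over all probe sets the median absolute difference was 0.48 and the 95th percentile 1.64, which Krt80 did not reach. Some uncalled members differed as well, Krt19 by 1.76, the _at probe set of Krt4 by 1.24 and Krt18 by -1.19. The epidermis arrays differed by 0.95 for Krt24 and by at most 0.28 for the other 3 called genes. With tumour 2 left out the differences from epidermis were -4.60 for Krt23, 5.28 for Krt24 and -4.27 for Krt78. With tumour 1 left out they were -6.91, 3.28 and -5.99 for the same genes. Here only the closer epidermis pair gave the spread, so these are read as sizes and not as tests. The Actb ratio was 11.3 for tumour 1 and 93.1 for tumour 2, while the Gapdh ratio was closer, at 10.6 and 15.4. The median of tumour 2 minus tumour 1 was -1.0 over 16 genes of the granular layer and envelope and -2.28 over 13 skeletal muscle genes. The summed intensity of the muscle genes was 19190.1 and 3776.6 in the tumours, against 805.0 and 779.2 in the epidermis. The part of RNA quality and of tissue content in the gap between the tumours was not tested.

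**Figure D2:**
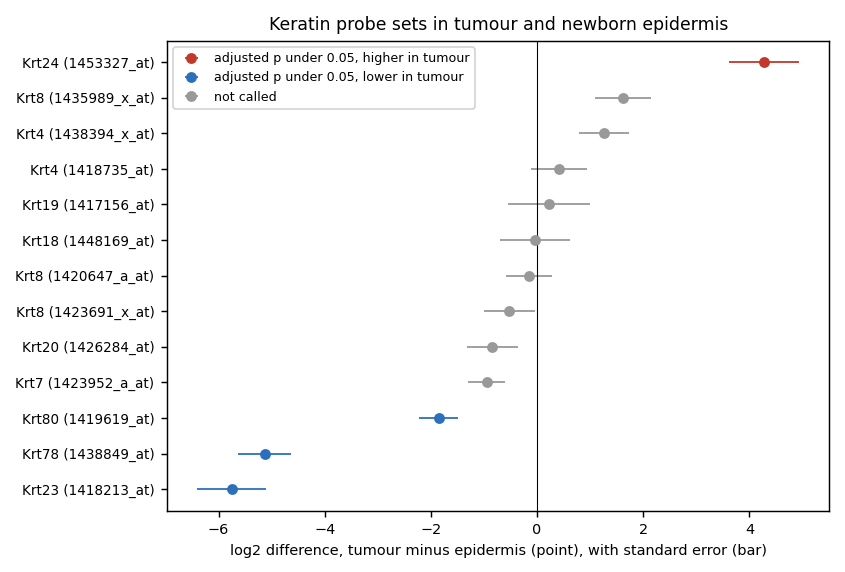
Log2 difference in intensity, tumour minus epidermis (points), with the standard error of the limma fit (bars), for each keratin probe set; 2 arrays per tissue. Krt24 lies at 4.28, Krt80 at -1.85, Krt78 at -5.13 and Krt23 at -5.75, and the 9 probe sets that were not called lie between -0.95 and 1.62.

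Most values of the simple keratins were under the array median, but Krt7 was above it on all 4 tissue arrays and 2 of the 3 Krt8 probe sets on both epidermis arrays. Their 7 probe sets ranged from 8.0 to 256.7 in the tumours, from 6.1 to 450.4 in the epidermis and from 3.1 to 55.8 in PDKC1, and 4 of the 7 were above the median on no array. By limma 0 of the 7 were called, against 18.3% of all probe sets called higher and 9.17% lower. An unadjusted p under 0.05 was found in 2 of the 7. The share of all probe sets with such a p was not counted, so nothing is read from these 2. A failure to be called does not show that the tissues were alike.

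Krt7, the ductal and glandular type II keratin, had 160.9 and 256.7 in the tumours, against 371.3 and 450.4 in the epidermis, and all 4 values were above the array medians. The tissues did not overlap, but the difference of -0.95 ± 0.35 was not called (limma, adjusted p = 0.0853). With quantile normalization it was -1.48 and called (adjusted p = 0.0275), as it was with arrays centred on their medians (-1.59, adjusted p = 0.012). PDKC1 gave 26.1, 49.0 and 43.6 at 0 h, 6 h and 10 h, below both tissues.

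The 3 probe sets of Krt8, the type II partner of Krt18, did not behave alike between the tissues. The one with the suffix _a_at had 99.8 and 124.6 in tumour tissue and 132.9 and 119.2 in epidermis, overlapping values with a difference of -0.15 ± 0.43. The first with the suffix _x_at had 90.9 and 65.5 in tumour tissue and 95.3 and 144.0 in epidermis (-0.52 ± 0.48). The second with the suffix _x_at ran the other way, with 102.1 and 102.7 in tumour tissue and 34.3 and 13.6 in epidermis (1.62 ± 0.53, limma adjusted p = 0.0586). That last difference was called with a pseudocount of 64 (0.93, adjusted p = 0.0457) and without a variance trend (1.62, adjusted p = 0.0386). The suffix _x_at marks probe sets with probes that can match other transcripts, so the direction of Krt8 is uncertain. All 3 were dim in PDKC1, at 3.5 to 55.8.

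Krt18, the type I partner, had 38.9 and 8.0 in tumour tissue and 6.1 and 46.9 in epidermis, so the tissues overlapped. Krt19, the keratin of simple epithelia and follicle, had 14.3 and 86.4 in tumour tissue and 64.6 and 12.3 in epidermis, again overlapping. Their differences were -0.04 ± 0.66 and 0.22 ± 0.77 (limma, adjusted p = 0.975 and 0.872), and both changed sign when 1 array was left out. Krt20, the keratin of gut and Merkel cells, differed by -0.84 ± 0.48 (adjusted p = 0.255). None of these 3 passed the array median on any of the 7 arrays.

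Krt4, the oesophageal type II keratin, was read by 2 probe sets. The one with the suffix _at had 9.2 and 43.7 in tumour tissue and 13.1 and 13.4 in epidermis, all under the array medians. The one with the suffix _x_at had 161.0 and 135.9 in the tumours, against 62.2 and 43.9 in the epidermis, a difference of 1.26 ± 0.47 that was not called (limma, adjusted p = 0.0876) unless probe sets under the 40th percentile were left out (adjusted p = 0.0396). Krt13, the type I partner of Krt4, named after its values were seen, was at 8.8 and 4.4 in the tumours, 6.7 and 6.4 in the epidermis and 55.9 to 70.9 in PDKC1.

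Counted by overlap, 3 of the 13 probe sets had both tumours above both epidermis arrays, against 38.4% of all probe sets. Both tumours lay below both epidermis arrays in 6 of the 13, against 25.0% of all.

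Merkel cells, the touch receptor cells of the epidermis that carry Krt8, Krt18 and Krt20, were looked for with 12 marker genes. Their summed intensity was 647.2 and 601.7 in the tumours, against 1540.8 and 1218.7 in the epidermis. Without Chga the sums of the other 11 ran the other way, at 582.4 and 549.1 in the tumours against 421.1 and 413.6 in the epidermis. Of the 12 genes 1 fell and 0 rose by limma, with a median difference of -0.05. The one that fell was Chga, a gene of secretory granules, at 64.8 and 52.6 in tumour tissue and 1119.7 and 805.1 in epidermis (-3.70 ± 0.34, adjusted p = 0.000662). Atoh1, the transcription factor that defines Merkel cells, named after its values were seen, was at 46.8 and 33.7 in tumour tissue and 68.3 and 110.6 in epidermis (adjusted p = 0.262). Other markers of the list ran the opposite way from Atoh1, and they too were named after their values were seen. Cck, Syp and Sox2 differed by 1.83, 1.23 and 1.08, and none of them was called. No marker value was 0, and at most 2 of the 12 were above the array median on any array. The part of Merkel cells in the keratin values was not tested.

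Other lists chosen as the cellular setting of these keratins were read in the same fit, with 1 probe set per gene. Over all 18193 genes read so, 16.2% were called higher and 12.3% lower, and the median difference was 0.09. Of 15 genes of simple epithelial adhesion and regulation 1 rose and 4 fell (median -0.31). Grhl2, an epithelial transcription factor, had 1360.2 and 1665.3 in tumour tissue and 470.5 and 672.6 in epidermis (1.39 ± 0.27, adjusted p = 0.00873). Cldn4, a claudin of tight junctions, had 276.4 and 75.8 in tumour tissue and 3185.0 and 3612.1 in epidermis (-4.38 ± 0.50, adjusted p = 0.00116), and Cgn, the junction protein cingulin, differed by -2.93 ± 0.31. Cldn4 and Cgn thus fell while Cdh1, the epithelial cadherin picked after its values were seen, differed by -0.27 (adjusted p = 0.416). The claudin genes Cldn3, Cldn7 and Cldn8 of the same list differed by 1.78, 0.11 and 0.43, and none of them was called.

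Of 14 genes listed around keratin filaments, 3 rose and 6 fell (median -0.61). Among them were desmosomal plaque and cytolinker genes, whose proteins link or anchor the filaments, but also others such as Sfn. The plakophilin gene Pkp2 differed by 2.12 ± 0.36 and the spectraplakin gene Macf1 by 2.03 ± 0.22. Sfn, which encodes the keratinocyte 14-3-3 protein, differed by -3.22 ± 0.54 and the envelope linker gene Evpl by -2.82 ± 0.50 (limma, adjusted p = 0.00472 and 0.00606). Of 16 granular layer and envelope genes 15 fell and 0 rose, with a median of -3.77, beside the differences of Krt23 and Krt78. Among them were the envelope precursor gene Ivl (-5.70 ± 0.25) and Cdsn of the corneodesmosome (-5.41 ± 0.44).

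Markers of other cells were read against the same shares. Of 14 fibroblast genes 10 rose and 1 fell (median 2.98), with summed intensities of 102281.2 and 126315.1 in tumour tissue and 25470.2 and 24875.0 in epidermis. Skeletal muscle markers had 5 of 13 higher (2.25), endothelium 4 of 10 (1.34), immune cells 5 of 12 (0.91), sweat gland 2 of 8 (0.81) and mesothelium 1 of 6 (0.05), with none lower in these lists; the mesothelium count is near the share of all genes. Melanocyte genes had 2 of 8 higher and 1 lower (-0.16). No value of any list was 0. Their part in the differences of the 4 called keratins was not tested.

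**Figure D3:**
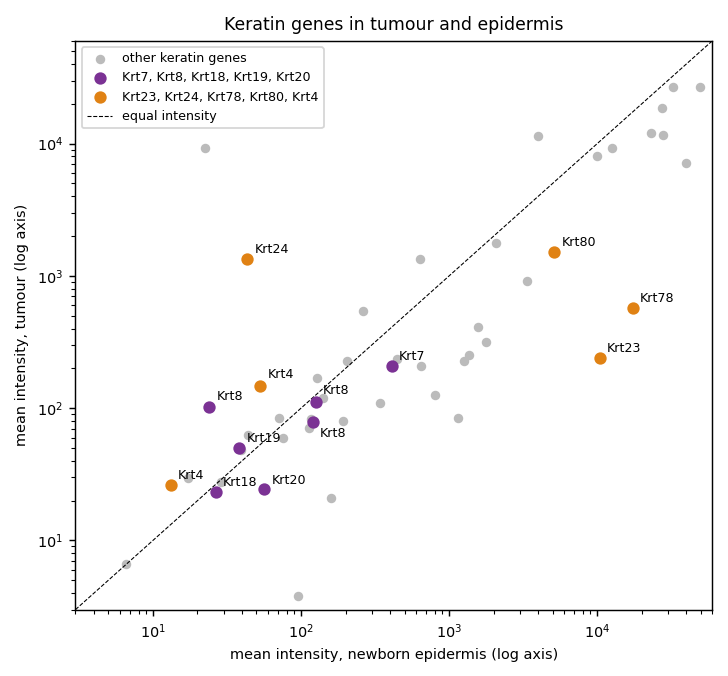
Mean intensity in tumour (vertical, log axis) against mean intensity in newborn epidermis (horizontal, log axis); each point is 1 probe set of a simple keratin (purple), a rarer keratin (orange) or the brightest probe set of another keratin gene (grey). Krt24 lies at 1350.6 in tumour tissue and 43.4 in epidermis, and Krt23 and Krt78 lie below the line at 241.2 and 574.0 in tumour against 10386.4 and 17449.5 in epidermis.

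The remaining keratin family gives the scale of these differences. Of 38 other keratin genes 3 rose and 12 fell, with a median difference of -0.74. The 2 largest rises were Krt2, a late epidermal keratin, and Krt6a, a wound and follicle companion keratin. Krt2 was at 18385.0 and 233.7 in tumour tissue and 25.8 and 18.9 in epidermis (5.81 ± 1.65, adjusted p = 0.037). Its tumour values lay far apart, with tumour 1 much the higher. Krt6a was at 11169.7 and 11548.0 in tumour tissue and 3089.5 and 4896.4 in epidermis (1.54 ± 0.27, adjusted p = 0.00593). The 2 largest falls were Krt77 (-3.60 ± 0.38), a keratin of eccrine duct in human skin, and the hair keratin Krt35 (-3.07 ± 0.86). Krt23 and Krt78 thus differed by more than any of these 12 genes that fell, as point values. Their difference from the other keratins was not tested.

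In PDKC1 the question was whether blocking Smoothened moved these keratins within 10 h. With 1 array per time there is no test. Over all levels, 1 of the 13 probe sets, Krt78, was at least 2-fold lower at both times, against 3.07% of all 45037, and 0 were at least 2-fold higher, against 2.04%. Only Krt78, Krt80 and the _x_at probe set of Krt4 had their brightest PDKC1 array above its median. Krt78 passed that level at 0 h alone, and the Krt4 probe set at 0 h and 6 h, so the level itself selects for lower values later and nothing is read from the counts among these 3. They were 1 lower and 0 higher at both times, against 1.08% and 1.21% of the 25111 probe sets at that level.

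Krt78 differed by -1.11 at 6 h and -2.50 at 10 h on the log2 scale. Its intensity of 109.9 at 0 h was not far above the array median of 78.1. They were -1.30 and -3.48 with a pseudocount of 4, and -0.71 and -1.31 with 64, where the 6 h value no longer reached 2-fold. The order of the 3 values was the same, but the size rests on the pseudocount. Krt80 differed by -0.15 at 6 h and -0.20 at 10 h. The _x_at probe set of Krt4 was at 82.2, 73.4 and 24.3 at 0 h, 6 h and 10 h, a difference of -0.14 and then -1.28. At 6 h alone 1 of these 3 was at least 2-fold lower, against 3.27% of all, and 0 were higher, against 2.29%. At 10 h alone 2 of the 3 were at least 2-fold lower, against 3.02%, and 0 were higher, against 2.84%. The level that selected these 3 favours lower values later, so nothing is read from these counts either.

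The members under the array median at every PDKC1 time had no common direction. Krt19 was 1.60 higher at 10 h, the _a_at probe set of Krt8 1.33 higher at 10 h, and Krt20 differed by -1.54 at 6 h and 0.09 at 10 h. For scale, 95 percent of the probe sets that were likewise under the median lay within 1.57 of 0 h at 6 h and within 1.58 at 10 h, so that Krt20 lay inside that range and Krt19 just outside it. Over all probe sets the bound was 1.44 at both times, and Krt78 at 10 h lay outside it. Krt78 at 6 h (-1.11) and the _x_at probe set of Krt4 at 10 h (-1.28) lay inside it. That bound takes in the dim probe sets, so it is not matched to the level of these 2, and none was taken for brighter ones alone. Of the 25111 probe sets at their level, only 3.27% were at least 2-fold lower at 6 h and 3.02% at 10 h.

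**Figure D4:**
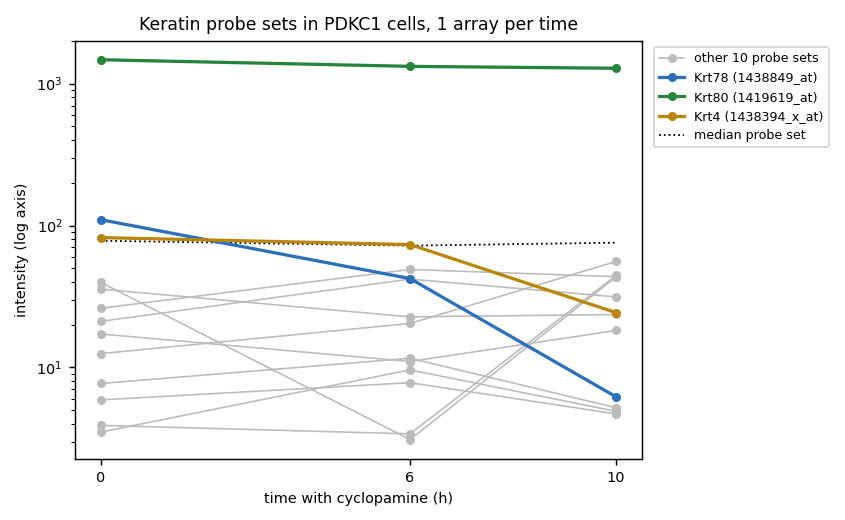
Intensity (log axis) of the 13 keratin probe sets in PDKC1 at 0, 6 and 10 h with cyclopamine, 1 array per time, with the median probe set dotted. Krt80 stays between 1283.4 and 1474.2, Krt78 goes through 109.9, 42.3 and 6.2, and the 10 grey probe sets stay under the median.

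Untreated PDKC1 cells were dimmer than the tissues for most of these keratins. Against the mean of the tumours, 8 of the 13 probe sets were at least 2-fold lower (28.1% of all) and 0 were at least 2-fold higher (18.4% of all). On the log2 scale Krt24 differed by -4.41, Krt23 by -3.02 and Krt78 by -1.98. Against the mean of the epidermis, 7 of the 13 were at least 2-fold lower (16.3% of all) and 0 higher (21.4% of all), with differences of -8.77 for Krt23, -7.11 for Krt78 and -1.78 for Krt80. Krt23 at 0 h stood at percentile 12.7 of its array, so its differences rest on the pseudocount: with 64 they were -1.82 from the tumours and -7.18 from the epidermis, and with 4 they were -3.91 and -9.79. The counts rest on the pseudocount too. With 64, 7 of the 13 were at least 2-fold lower than the tumours and 6 than the epidermis, and with 4 both counts were 8. Krt19 was at -1.48 and -1.26 with 16 but at -0.68 and -0.54 with 64. Both comparisons share the 0 h array. The line, another RNA input and culture cannot be told apart here.

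The genes most like each member over the 7 arrays were found by Pearson's r of log2 values; the arrays share their tissue or line, so such r values are descriptions. Krt23 was most like Serpinb12 (0.999), Pla2g4f (0.999) and Fam3b (0.998). Krt78 was most like Prrg2 (0.996), Ovol1 (0.995) and Evpl (0.994), and Krt24 most like Kmt2a (0.996), Cdh6 (0.994) and Icam1 (0.992). Krt80 was most like Ube2g2 (1.0), Rtf2 (0.999) and Atmin (0.997). Serpinb12, an epidermal serpin gene, was at 441.9 and 106.4 in tumour tissue and 20229.7 and 16996.2 in epidermis, close to the course of Krt23. Ovol1, a transcription factor gene of epidermal differentiation, was at 39.4, 24.3 and 8.5 in PDKC1 at 0 h, 6 h and 10 h. These values were under the array median each time. Ovol1 was picked for its likeness to Krt78 on these same arrays, so nothing is read from their shared order. Krt23 and Krt78 had an r of 0.982 with each other, Krt23 and Krt80 0.931, Krt78 and Krt80 0.904, and Krt24 between -0.194 and 0.097 with those 3.

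For the dimmer members the nearest genes were Selenot (0.994), Ildr2 (0.992) and Gpbp1 (0.992) for Krt7, and Fes (0.995), Opn4 (0.986) and Ccdc187 (0.986) for the _a_at probe set of Krt8. They were Tdo2 (0.944), Serf1 (0.93) and Ppp2r5a (0.921) for Krt19, and Adam1a (0.968), A330009N23Rik (0.967) and 1110028F11Rik (0.963) for Krt20. For the _x_at probe set of Krt4 they were 2700046A07Rik (0.973), Eml1 (0.971) and B230217O12Rik (0.971). Krt18 spanned less than 4-fold and was left out.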

How the data were processed

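The deposited table holds 1 linear signal intensity per probe set and array, made by the authors; the software that summarised the probes is not given in the sources used here. Per the labels' protocols, biotinylated cRNA was made from 100 ng (tissue) or 2000 ng (PDKC1) of total RNA. The mean of each array without its lowest and highest 2 percent of probe sets was 496.2 to 497.7. No further normalization was applied. No 2 arrays were identical.

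Of 45037 probe sets left after 64 control probe sets, 34945 had 1 gene, 932 several and 9160 no gene name; symbols were updated through Entrez identifiers and RefSeq GRCm38.p6. Intensities were taken as log2(intensity + 16). The 4 tissue arrays, tumour minus epidermis, were fitted in limma 3.58.1 under R 4.3.3 (lmFit, then eBayes with a variance trend and no covariate), two-sided, adjusted by Benjamini-Hochberg over all 45037 probe sets, called at an adjusted p under 0.05. The fit was tested on simulated data. Lists and other keratins were read on 1 probe set per gene, that of highest mean log2 intensity on the 7 arrays, and are described by counts and medians. PDKC1 values were counted at 2-fold without a test.

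Named were every member probe set and, per list and for the other keratins, up to 2 called genes in each direction by size, or, with none called, at most 2 bright ones, printed where a result turns on them. For members spanning at least 4-fold over the 7 arrays, the 3 genes of highest r, bright on at least 1 array, were also named. Exceptions are stated. The members and lists were chosen with earlier results of these data known. Alternatives changed the scaling, the pseudocount, a filter on dim probe sets, the variance trend, a replicate block, each tissue array in turn, the reading per gene and the fold. The number of arrays limits the precision.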

Additional observations from a re-analysis of the deposited data

How the results depend on the processing

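Krt23, Krt24 and Krt78 kept their direction and their call under all 14 alternatives to the tissue comparison, from -6.91 to -4.60, from 3.28 to 5.28 and from -5.99 to -4.27, and Krt80 under all but the 2 that left out an epidermis array. In the 4 that left out an array, 1 tissue gave all of the spread, so those calls are no check of stability. The count of member probe sets called higher, 1, was 2 with a pseudocount of 64, without a variance trend and with probe sets under the 40th percentile left out; 3 were called lower throughout, except 4 with quantile normalization, with centred arrays and without tumour 2, and 2 without either epidermis array. Dim members changed sign: Krt19 (0.22) was -0.22 with quantile normalization and -0.42 with centred arrays; the _at probe set of Krt4 (0.41) was -0.23 with centred arrays; and the _a_at probe set of Krt8 (-0.15) was 0.32 as the mean of its probe sets. With 1 array left out, Krt19 ran from -0.66 to 1.10, Krt18 from -0.79 to 0.72 and that Krt4 probe set from -0.21 to 1.03. None of these was called, and the cause was not tested.

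Over all probe sets, 8255 were higher and 4132 lower. With centred arrays the counts were 4843 and 8722, with 1 probe set per gene 3015 and 2267, and with the mean per gene 2676 and 1894. Leaving out 1 array gave 3471 to 9155 higher and 1088 to 5769 lower, with the fewest without an epidermis array. Other keratin genes, 3 higher and 12 lower, were 1 and 20 with centred arrays, and 1 was higher without a variance trend and with the mean per gene. Leaving out 1 array gave 0 to 3 higher and 3 to 17 lower. In PDKC1 the 1 probe set lower at both times was 0 with a pseudocount of 64, and the count above the tumour mean, 0, was 1 with centred arrays. With the replicate number as a block, which no label ties across tissues, member probe sets called were 1 higher and 3 lower and all probe sets 8628 and 4252; the deviations of same-numbered arrays had a correlation of -0.001. Signal near background limits Krt18, Krt19, Krt20 and Krt4, and 2 arrays per tissue limit all values.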
